A study of Mus musculus with 6 samples.

Results

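The keratin and keratin-associated genes form a family of 110 autosomal protein-coding mouse genes. The members are all genes whose GENCODE symbol is Krt followed by digits, or starts with Krtap, and they were taken from 20807 autosomal protein-coding genes. There are 53 Krt and 57 Krtap genes. The whole cerebral cortex of C57BL/6 embryos at E16 was analysed by an oxidative form of reduced representation bisulfite sequencing, which reads DNA methylation. In this assay MspI cuts the DNA at CCGG, 5-hydroxymethylcytosine is oxidised so that it reads as unmethylated, and bisulfite then turns unmethylated cytosine into a base that reads as T. The methylation level is the percentage of reads that still show C, that is, 5-methylcytosine. Control embryos were Uhrf1 +/- and conditional knockout (cKO) embryos were Uhrf1 -/-, with 3 libraries each. The floxed exon 4 of Uhrf1 was deleted by Emx1-Cre, which is active in the dorsal telencephalon from early neurogenesis on. The controls carried 1 deleted copy as well. The dissected cortex also holds cells outside the Emx1 lineage, such as interneurons that migrate in, vessels and microglia. Emx1-Cre does not act in these cells, so that each cKO value averages over cells with and without the deletion. No cytosine of exon 4 (chr17:56310676-56310836) was listed in any library, and the deletion could therefore not be read from these data.

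Keratins are the intermediate filament proteins of epithelia. Each filament is built from pairs of an acidic type I and a basic type II keratin. In the mouse the type I genes lie together on chromosome 11, and the type II genes, with the type I gene Krt18, lie on chromosome 15. Keratin-associated proteins cross-link the hair keratins of the hair shaft, and their short genes lie among the type I genes on chromosome 11, on chromosome 16 and at a few other places. Most of these genes are silent in the brain. Uhrf1 binds hemimethylated CpG sites behind the replication fork and recruits Dnmt1, so that dividing cells without it lose DNA methylation. The labels name no litter or embryo of origin. All p-values below therefore measure the spread between these libraries, and counting intervals would cover counting error only.

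Not all members could be read. A cytosine was listed in any library for 62 members. A cytosine was used only where all 6 libraries had a coverage of at least 6 reads, from 1000 bp upstream of the gene to its end. This left 472 cytosines at 449 CpG sites in 48 of the 110 members, against 16657 of all 20807 genes. They covered 40 of 53 Krt genes but only 8 of 57 Krtap genes. The Krt regions had a median length of 7594 bp with 116 CpG and 9 CCGG sites. The Krtap regions had a median length of 1892 bp with 15 CpG and 1 CCGG site, and 21 of 57 held no CCGG. Whether sequence decided which members were covered was not tested. The cluster on chromosome 11 had 20 of 50 members with 161 cytosines, that on chromosome 15 had 24 of 26 members with 298 cytosines, and that on chromosome 16 had 4 of 24 members with 13 cytosines. None of the 10 members on other chromosomes was covered. A test needed at least 3 cytosines, which 36 members had, and 12 members had 1 or 2. Krt14 and Krt17, basal and stress keratins of the epidermis, had none that reached this coverage in all 6 libraries.

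Several stretches of DNA carried the results below. The first set holds the 100 bp windows of the genome with the largest and the smallest loss among 26 well-read windows of these genes, where the controls were at least 50% methylated and each library had at least 50 reads. They are printed on the plus strand of GRCm38.p6, with each CpG site that was read in capitals. Among the 26, a window in the first exon of Krt81 (chr15:101463601-101463700) fell furthest and is not printed. Krt83 and Krt42 came next, and Krt87, Krt75 and Krt4 fell least.
Krt42, chr11:100265901-100266000: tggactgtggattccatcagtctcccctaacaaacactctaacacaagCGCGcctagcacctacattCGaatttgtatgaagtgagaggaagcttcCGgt
Krt83, chr15:101491001-101491100: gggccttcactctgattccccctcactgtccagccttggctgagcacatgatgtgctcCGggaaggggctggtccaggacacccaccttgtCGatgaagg
Krt87, chr15:101437501-101437600: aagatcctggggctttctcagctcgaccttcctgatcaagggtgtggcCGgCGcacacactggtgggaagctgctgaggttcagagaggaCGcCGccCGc
Krt75, chr15:101573701-101573800: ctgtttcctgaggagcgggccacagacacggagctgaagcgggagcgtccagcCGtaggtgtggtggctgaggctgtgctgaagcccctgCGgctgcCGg
Krt4, chr15:101924401-101924500: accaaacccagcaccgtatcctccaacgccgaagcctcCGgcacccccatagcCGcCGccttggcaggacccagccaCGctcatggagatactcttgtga
The second set, chosen after its values were seen, holds the 250 bases before the annotated start of 3 genes, on the strand of the gene. Krt87 has 21 CpG sites there, and its 4 cytosines read averaged 3.40% in control replicates 2 and 3. Krt35, with 8 sites, averaged 36.7% over 6 cytosines, and Krt18, with 12 sites, averaged 36.3% over 3 cytosines. Those of Krt18 lie from -242 to -220 bp, at the far edge, and the rest of its printed sequence was not read.
Krt87 upstream, chr15:101438805-101439054, minus strand: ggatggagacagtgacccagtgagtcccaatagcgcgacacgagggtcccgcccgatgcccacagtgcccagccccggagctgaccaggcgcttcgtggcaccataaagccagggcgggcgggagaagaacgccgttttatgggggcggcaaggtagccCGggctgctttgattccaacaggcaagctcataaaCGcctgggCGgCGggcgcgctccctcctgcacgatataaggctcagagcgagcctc
Krt35 upstream, chr11:100096242-100096491, minus strand: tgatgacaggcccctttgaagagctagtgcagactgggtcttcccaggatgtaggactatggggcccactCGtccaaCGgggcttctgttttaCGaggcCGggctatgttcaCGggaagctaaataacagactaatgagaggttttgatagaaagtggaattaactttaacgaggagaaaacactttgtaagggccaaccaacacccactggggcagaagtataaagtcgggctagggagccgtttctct
Krt18 upstream, chr15:102027930-102028179, plus strand: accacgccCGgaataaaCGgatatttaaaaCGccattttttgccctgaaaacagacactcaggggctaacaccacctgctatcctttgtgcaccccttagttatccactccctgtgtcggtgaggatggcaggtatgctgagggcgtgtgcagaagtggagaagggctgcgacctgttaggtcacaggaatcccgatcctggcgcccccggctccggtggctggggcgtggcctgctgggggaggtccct

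One library does not follow its group. The library labelled control replicate 1 was at the level of the cKO libraries across the genome. Over 472545 cytosines of other gene regions it averaged 12.2%, against 31.6% and 31.4% in control replicates 2 and 3. The cKO libraries averaged 15.4%, 15.4% and 12.5% there. Each result is therefore given with all 6 libraries and without control replicate 1. Leaving it out removes a control by its outcome, so that calls made without it rest on 2 controls, and no p from them is independent of that choice. The libraries held between 18238737 and 31019082 reads over listed cytosines, with a median coverage of 13 to 17.

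Averaged over all 472 cytosines, the keratin genes were methylated at 57.2% and 56.0% in control replicates 2 and 3. Control replicate 1 was at 20.4%, and the cKO libraries were at 25.7%, 24.9% and 20.3%. Control replicates 2 and 3 lay above all cKO libraries, and control replicate 1 fell among them. With all 6 libraries the mean was 44.6% ± 20.9 (SD, n = 3) in control and 23.6% ± 2.91 (SD, n = 3) in cKO. The difference of -20.9 percentage points did not exceed the spread between libraries (two-sided exact permutation test, p = 0.3, the smallest possible being 0.1). Without control replicate 1 the control mean was 56.6% ± 0.854 (SD, n = 2) and the difference was -33.0 points (exact permutation test, p = 0.1, which is the smallest that 2 against 3 libraries can give). The cKO then held 41.7% of the control level.

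The clusters on chromosomes 11 and 15 were methylated to different levels. On chromosome 11, home of the type I keratins, control replicates 2 and 3 averaged 67.5% and 65.1%, control replicate 1 averaged 23.8%, and the cKO libraries averaged 30.8%, 28.8% and 22.9%. On chromosome 15, home of the type II keratins, the same values were 50.6% and 50.7%, 17.3%, and 22.4%, 22.2% and 18.1%. In both clusters control replicates 2 and 3 were above every cKO library, and control replicate 1 was not. On chromosome 16, where only keratin-associated genes were read, control replicates 2 and 3 averaged 82.4% and 66.4%, control replicate 1 averaged 49.8%, and the cKO libraries averaged 36.5%, 39.9% and 38.6%. There control replicate 1 lay above all cKO libraries, but only 13 cytosines were read.

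With all 6 libraries, the differences were -24.7 points on chromosome 11, -18.6 on chromosome 15 and -27.9 on chromosome 16 (exact permutation tests, adjusted p = 0.4, 0.4 and 0.3 over the 3 clusters). Without control replicate 1 they were -38.8, -29.7 and -36.1 points (adjusted p = 0.1 in each, the smallest possible). The cKO held 41.4%, 41.3% and 51.5% of the level of control replicates 2 and 3. The plot of cluster means shows these values beside those of the other gene regions.

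**Figure D1:**
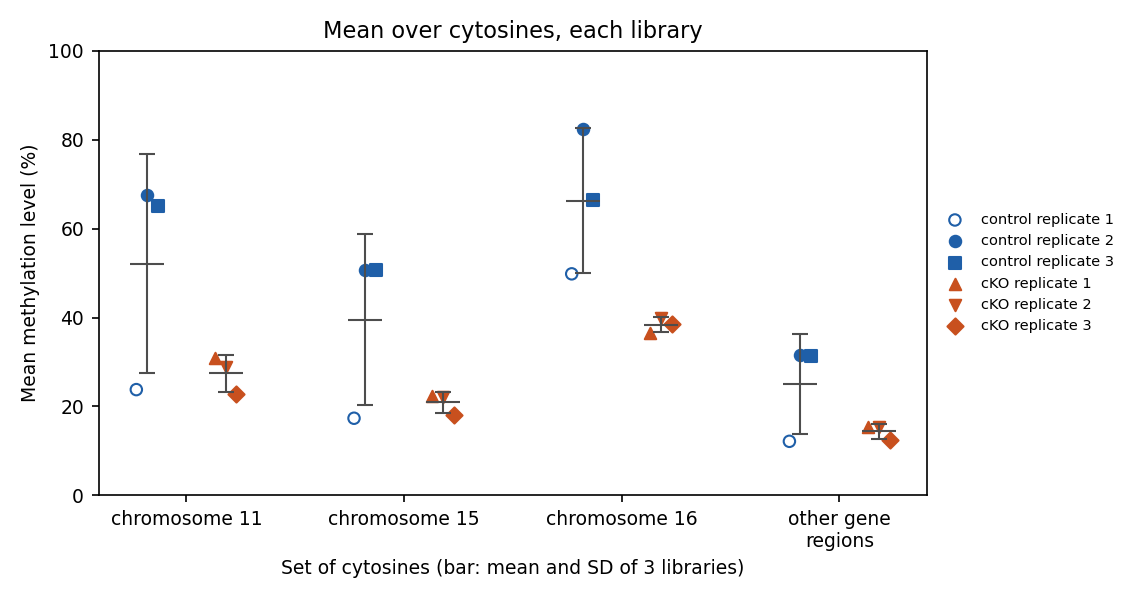
Mean methylation level in percent (y axis) over the cytosines of the keratin clusters on chromosomes 11, 15 and 16 and of other autosomal gene regions (x axis), with 1 point per library and bars for the mean and SD of the 3 libraries of a group. The open circle is control replicate 1, which lies near the cKO points in all sets but chromosome 16, where it is at 49.8%.

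Against the genes at large, the keratin genes were more methylated in every library. In the control libraries, with replicate 1 first, their mean was 168.2%, 181.1% and 178.8% of that of the other gene regions. In the cKO libraries it was 167.1%, 162.1% and 162.9%. All control libraries lay above all cKO libraries, and control replicate 1 by the least. The ratio differed by -12.0 percentage points with all 6 libraries and by -15.9 without control replicate 1 (two-sided exact permutation tests, p = 0.1 in both, the smallest possible). The share of highly methylated cytosines differs between the sets. Of the keratin cytosines 44.3% were at 80% or more in control replicate 2, against 23% of the other gene cytosines, and 24.2% against 57.2% were under 10%. Among cytosines at 80% or more in control replicate 2, the keratin genes averaged 85.6% in control replicate 3 and 35.4% ± 4.94 (SD, n = 3) in cKO. The other gene regions averaged 86.1% and 38.1% ± 5.01 there, so that in this class the cKO held 41.4% and 44.3% of control replicate 3. The difference between the sets within this class was not tested.

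Gene by gene, the reads of each region were summed per library and compared by a quasi-binomial F test whose dispersion was moderated across all 15698 gene regions tested. A region was called at a Benjamini-Hochberg adjusted p (q) under 0.01 and a change of at least 25 points. With all 6 libraries 0 of 36 keratin genes were called, as were 0.0% of all gene regions. At an unadjusted p under 0.05 there were 6 keratin genes and 3321 gene regions, and limma and a test with the dispersion of each gene alone also called 0. Without control replicate 1, 26 of 36 keratin genes were called lower in cKO and 0 higher, against a background of 31.4% of all 15698 gene regions called lower. In that fit limma called 24, and the test with the dispersion of each gene alone called 0. A region can fall by 25 points only from a control level of 25% or more, which 33 of the 36 keratin genes had, and 59.2% of the 8322 gene regions at that level were called. All cKO libraries were below control replicates 2 and 3 in 34 of the 36 tested members, against a background of 75.2% of all tested gene regions, and in 44 of the 48 covered members. The 75.2% covers regions of any control level, also those under 25%, so that these shares are not matched for level. In 47 of 48 covered members control replicate 1 was below control replicates 2 and 3 as well. It lay below all cKO libraries in 24 members, among them in 20 and above them in 4, which were Krt222, Krt1, Krtap26-1 and Krtap15.

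The median keratin gene went from 76.6% in control replicates 2 and 3 to 27.7% in cKO, and the median of all tested gene regions went from 27.7% to 11.7%. Of the genes at 25% or more, the median keratin gene held 38.9% of its level and the median gene at large 41.6%. The plot of gene regions shows every tested member in each library.

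**Figure D2:**
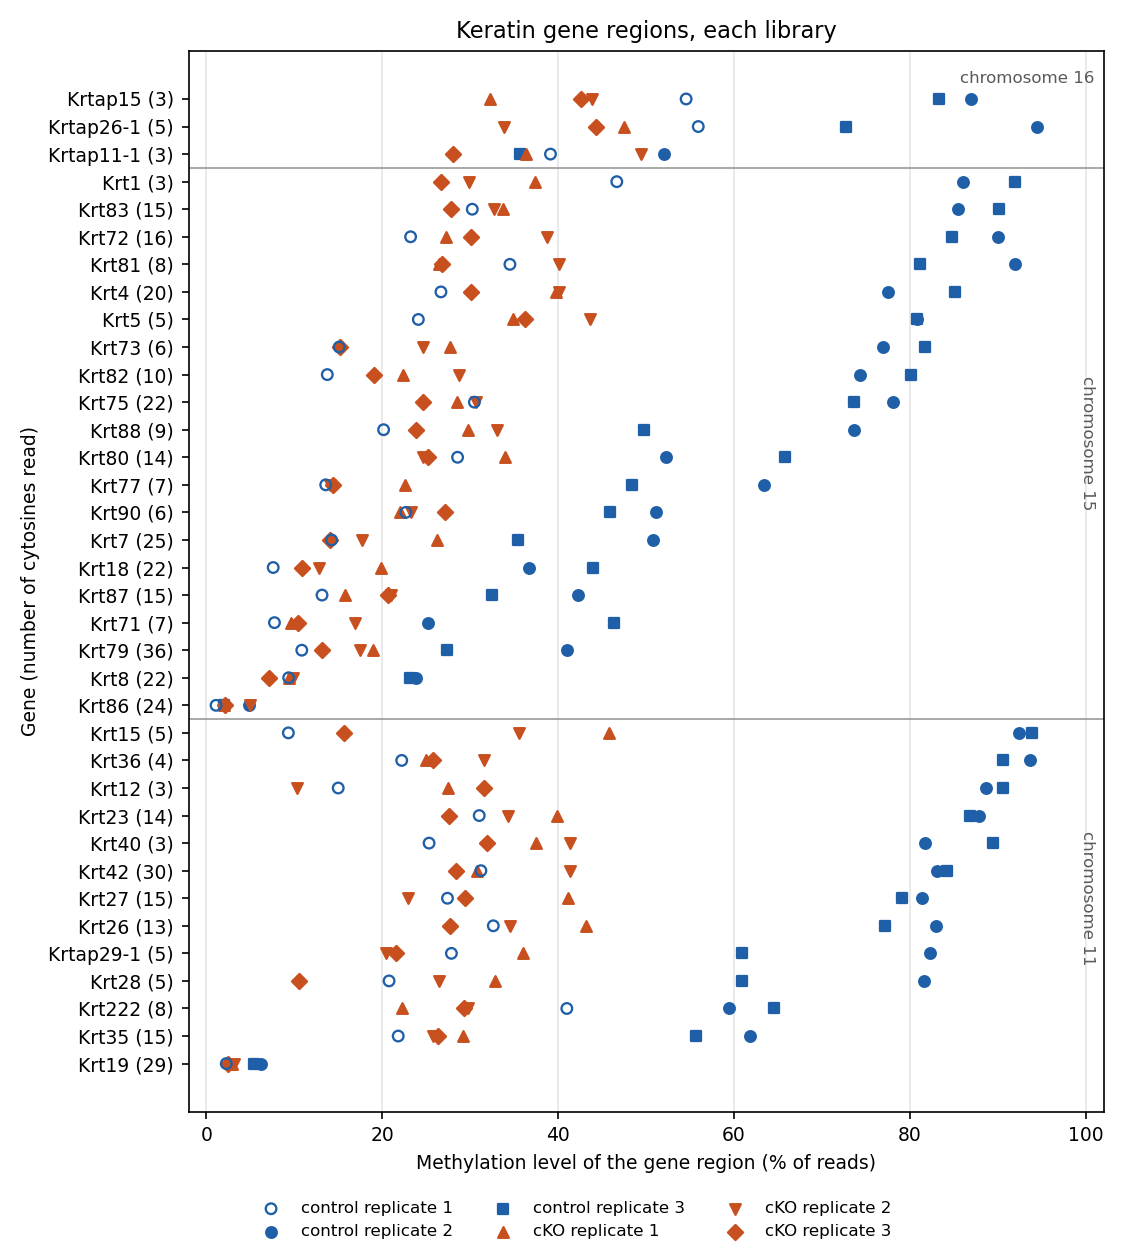
Methylation level of each tested gene region in percent of reads (x axis) for the 36 keratin genes with at least 3 cytosines (y axis, number of cytosines in brackets), grouped by chromosome and ordered by control level, with 1 symbol per library. Filled blue symbols are control replicates 2 and 3, the open circle is control replicate 1 and orange symbols are cKO. The blue filled and orange symbols are apart in 34 of the 36 genes, Krt86 and Krtap11-1 being the exceptions. Of all tested gene regions, at any control level, 75.2% are apart in this way.

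The hair shaft keratins fill the hair cortex and cuticle. Those tested ranged from 3.48% in Krt86 to 92.1% in Krt36 in control replicates 2 and 3. Their median was close to those of the inner root sheath, basal and suprabasal lists below. Of 15 such genes 8 were tested, and 6 were called lower without control replicate 1. At large 31.4% of gene regions were called in that fit, and 59.2% of those at 25% or more. The median of the 8 hair shaft genes went from 81.4% in control replicates 2 and 3 to 27.3% in cKO. Krt83, a type II hair keratin (chr15:101485130-101491512), was read at 15 cytosines in its first exon and intron, 6 of them in sequence that is not unique. Control libraries, in the order of replicates 1, 2 and 3 used from here on, gave 30.2%, 85.5% and 90.2%, and cKO libraries gave 33.7%, 32.7% and 27.8%. Its control replicates 2 and 3 did not overlap with cKO, and control replicate 1 lay among the cKO libraries. The change was -56.5 points without control replicate 1 (moderated quasi-binomial F test, q = 5.44e-06) and was not called with all 6 libraries (q = 0.232).

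Krt81, its neighbour of the same type, was at 34.5%, 91.9% and 81.2% in control and at 26.4%, 40.1% and 26.8% in cKO over 8 cytosines. It changed by -55.4 points (q = 0.000113 without control replicate 1, q = 0.232 with it). Krt36, a type I hair keratin on chromosome 11, had the second largest change of all tested members, from 92.1% to 27.5%, at only 4 cytosines. Krt82, a hair cuticle keratin, went from 77.2% to 23.4% over 10 cytosines.

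Krt86 and Krt87 were the tested members of this group not called without control replicate 1. Krt87 went from 37.35% in control replicates 2 and 3 to 19.1% in cKO. Krt86, a type II hair keratin, is a close relative of Krt81 and Krt83 and lies between them. Its 24 cytosines all lie in the last part of the gene, whereas those of Krt83 lie near its start, so unlike parts were read. The Krt86 region was at 1.11%, 4.89% and 2.07% in control and at 2.03%, 4.96% and 2.10% in cKO. The groups overlapped, and no change was detected (-0.45 points, q = 0.688 without control replicate 1). Krt35, a type I keratin of the hair cortex, stood between, at 21.8%, 61.8% and 55.7% in control and 29.2%, 25.7% and 26.3% in cKO, a change of -31.7 points (q = 0.000176 without control replicate 1, q = 0.25 with it).

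The inner root sheath and companion layer keratins, which shape the growing hair from outside, gave a like picture. Of 8 genes 7 were tested and 6 were called lower without control replicate 1, against 59.2% of all gene regions at 25% or more. The list had a median of 79.3% in control replicates 2 and 3 and 27.9% in cKO. Krt75, the keratin of the companion layer, had the lowest q of all members. Over 22 cytosines it was at 30.5%, 78.1% and 73.6% in control and 28.5%, 30.7% and 24.6% in cKO. Control replicates 2 and 3 were far above the cKO range, and control replicate 1 was inside it. It changed by -47.9 points (q = 3.09e-06 without control replicate 1, q = 0.232 with it).

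Krt73, a type II inner root sheath keratin, had the largest fall of the genes with at least 5 cytosines and 50 reads per library. It was at 15.1%, 76.9% and 81.7% in control and at 27.7%, 24.6% and 15.2% in cKO, a change of -56.8 points (q = 0.000181 without control replicate 1, q = 0.257 with it). Krt72, a further type II inner root sheath keratin, went from 87.4% to 32.0%, and the type I partners Krt26 and Krt27 went from 80.04% to 35.1% and from 80.2% to 31.1%. Krt71, mutated in curly-coated mammals, was not called. Its 7 cytosines gave 7.75%, 25.2% and 46.3% in control and 9.59%, 16.9% and 10.4% in cKO (q = 0.0336 without control replicate 1). Control replicates 2 and 3 of Krt71 differed by more than its lower control did from the cKO libraries.

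Among keratins of stratified epithelia, the basal and stress list had 3 tested genes of 8, all called lower without control replicate 1. The share over all gene regions was 31.4%, and 59.2% over those at 25% or more. The median of the list was 83.7% in control replicates 2 and 3 and 33.5% in cKO. Krt42, a type I keratin of the nail unit (chr11:100262882-100269871), was the gene with the second highest number of cytosines, 30. It was at 31.2%, 83.1% and 84.2% in control and at 30.8%, 41.3% and 28.4% in cKO. Control replicate 1 fell within the cKO range. The change was -50.2 points (q = 6.36e-06 without control replicate 1, q = 0.232 with it). Krt5, the type II keratin of basal keratinocytes, was at 24.1%, 80.9% and 80.8% in control and 34.9%, 43.7% and 36.3% in cKO over 5 cytosines (-42.6 points, q = 0.00571 without control replicate 1). Control replicate 1 was below all cKO libraries at Krt5. Krt15, a basal keratin also known from the hair follicle bulge, was at 9.33%, 92.4% and 93.9% in control and at 45.8%, 35.5% and 15.7% in cKO, with as few as 48 reads (-60.8 points, q = 0.000403 without control replicate 1).

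The suprabasal and other stratified keratins had 5 tested genes of 12, of which 4 were called lower without control replicate 1. This compares with 59.2% of all gene regions at 25% or more. The medians of the list were 81.3% in control replicates 2 and 3 and 23.1% in cKO. Krt1, the type II keratin of differentiating epidermis, was at 46.7%, 86.1% and 91.9% in control and at 37.4%, 29.8% and 26.7% in cKO over 3 cytosines. Here control replicate 1 was above every cKO library, though still far below the other controls. The change was -57.7 points (q = 0.000264 without control replicate 1, q = 0.232 with it). Its partner Krt10 was read at 2 cytosines only, with 20%, 86.2% and 82.1% in control and 44.8%, 40.7% and 37.9% in cKO, and was not tested. Krt4, of mucosal squamous epithelium, went from 81.3% to 36.6% over 20 cytosines. Krt12, the corneal keratin, had the largest change of all tested members, -66.5 points, at 3 cytosines (q = 0.00147 without control replicate 1).

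The simple epithelial keratins, the first to appear in the embryo, were the least methylated of the keratin groups. Of 7 genes 6 were tested and 3 were called lower without control replicate 1, against 31.4% of all gene regions. Among the 6, 4 were at 25% or more, and 59.2% of such regions at large were called. The list had a median of 41.7% in control replicates 2 and 3 and 16.9% in cKO. Krt8, the type II partner of Krt18, was at 9.37%, 23.8% and 23.1% in control and at 9.41%, 9.81% and 7.10% in cKO. Its control replicates 2 and 3 were above all cKO libraries, with a change of -14.7 points (q = 0.00164 without control replicate 1). From a control level under 25% it could not fall by the 25 points asked for. Krt18 was at 7.61%, 36.7% and 43.9% in control and at 19.8%, 12.8% and 10.9% in cKO, and was called at -25.8 points (q = 0.000207 without control replicate 1, q = 0.232 with it). Krt7, of ducts and glands, was at 14.2%, 50.8% and 35.4% in control and at 26.2%, 17.7% and 14.1% in cKO, and with -23.8 points it also missed the size asked for.

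Krt19, a type I keratin without a tail domain, had a low level, as 26 of its 29 cytosines lie in 1 unmethylated stretch inside the gene. Its region was at 2.28%, 6.18% and 5.46% in control and at 2.88%, 3.18% and 2.43% in cKO. The low level did not extend to the 1 cytosine read near the annotated start of the gene. That cytosine was at 22.9%, 66.7% and 93.1% in control and at 44.2%, 28.3% and 16.3% in cKO. Starts of other Krt19 transcripts were not examined, so that it is not known whether the unmethylated stretch holds a promoter. Over the whole Krt19 region the cKO libraries were below control replicates 2 and 3, by -2.99 points (q = 0.0634 without control replicate 1). Krt23, a type I keratin of simple epithelia, was at the other end of the list. It was at 31.0%, 87.9% and 86.8% in control and at 39.9%, 34.3% and 27.7% in cKO (-53.4 points, q = 7.6e-06 without control replicate 1, q = 0.232 with it). Krt222, at the edge of the chromosome 11 cluster, was at 40.99%, 59.4% and 64.6% in control and at 22.3%, 29.7% and 29.3% in cKO (-34.9 points, q = 0.00181 without control replicate 1, q = 0.232 with it), and control replicate 1 lay above all cKO libraries.

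Of the keratin-associated genes 4 of 57 were tested, and 2 were called lower without control replicate 1, against 31.4% of all gene regions. All 4 were at 25% or more, where 59.2% of gene regions at large were called. The median of the 4 went from 77.6% in control replicates 2 and 3 to 38.8% in cKO. Krtap26-1 on chromosome 16 was at 55.9%, 94.4% and 72.7% in control and at 47.4%, 33.8% and 44.3% in cKO over 5 cytosines (-41.7 points, q = 0.00728 without control replicate 1). Krtap29-1 on chromosome 11 was at 27.9%, 82.3% and 60.9% in control and at 36.1%, 20.4% and 21.6% in cKO (q = 0.00189 without control replicate 1). Krtap15, with 87.0% and 83.3% in control replicates 2 and 3, 54.5% in control replicate 1 and 32.2%, 43.8% and 42.7% in cKO, just missed the threshold (q = 0.0102).

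Krtap11-1 was not called. Its 3 neighbouring cytosines gave 39.1%, 52.1% and 35.7% in control and 36.3%, 49.5% and 28.1% in cKO. The groups overlapped, and the cKO held 86.5% of the level of control replicates 2 and 3 (-5.94 points, q = 0.542 without control replicate 1). With 56 reads in the thinnest library, a change of moderate size could have been missed. The 12 members with 1 or 2 cytosines, which were not tested, ran from 26.01% in Krtap17-1 to 90.2% in Krt84 in control replicates 2 and 3, and from 4.29% in Krtap17-1 to 41.2% in Krt10 in cKO. Control replicates 2 and 3 were above all cKO libraries except in Krt2 and Krt78, each read at 1 cytosine.

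Within a minority of the genes the methylation was strongly divided. Runs of at least 3 cytosines no more than 300 bp apart were averaged in each library, which gave 55 stretches in 35 genes with 413 of the 472 cytosines. In control replicates 2 and 3, 41 stretches in 30 genes were at 50% or more, 7 stretches in 7 genes were under 10%, and 7 lay between. The classes were set by these 2 controls, so the values that follow describe the stretches and test nothing. In all 41 highly methylated stretches every cKO library was below control replicates 2 and 3. Their median went from 84.7% to 31.6%, with changes between -69.2 and -27.9 points. Stretches outside the keratin genes were not counted, so that no share over all genes stands beside these 41. The 7 stretches under 10% were at 1.07% to 9.37% in control replicates 2 and 3 and at 1.44% to 13.0% in cKO. In 5 genes both kinds occurred, so that the level of the whole region mixes them.

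Krt8 is one such gene. Within an intron, 1247 to 1568 bp after the gene start, 13 cytosines were at 2.01%, 1.85% and 1.56% in control and at 0.606%, 3.42% and 3.58% in cKO. Further on, at 5055 to 5349 bp, 7 cytosines were at 30.8%, 90.1% and 81.7% in control and at 36.5%, 28.4% and 23% in cKO. The unmethylated stretch overlapped between the groups, whereas in the methylated one control replicates 2 and 3 were above all cKO libraries. Krt18, which pairs with Krt8, was likewise low near its start and high further on. From 115 to 718 bp its 12 cytosines averaged 19.5% and 21.1% in control replicates 2 and 3, against 9.30%, 6.70% and 9.38% in cKO, and from 1331 to 1377 bp its 5 cytosines averaged 87.0% and 80.7% against 35.3%, 35.4% and 16.3%.

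Krt87, a type II hair keratin, held both extremes within its first kilobases. Around its start, from -91 to 110 bp, 9 cytosines, 4 of them in the printed upstream sequence, were at 0.0%, 1.17% and 2.67% in control and at 1.04%, 2.92% and 1.496% in cKO. In the first part of the gene body, at 1206 to 1255 bp, 5 cytosines were at 41.3%, 93.0% and 85.2% in control and at 61.8%, 60.7% and 60.9% in cKO. This window, printed above, kept the highest cKO level of all highly methylated stretches, and control replicate 1 was below the cKO libraries there. It was still called lower without control replicate 1 (-27.7 points over its reads, q = 2.09e-06).

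In Krt79, Krt88 and Krt86 the stretch with little methylation lay at the far end. Krt79, known from the ducts of sebaceous glands, was at 28.1%, 76.7% and 82.7% in control and at 33.6%, 33.8% and 25.2% in cKO near its start, from -41 to 594 bp. Near its end, from 9549 to 10591 bp, 26 cytosines were at 5.31%, 10.8% and 10.1% in control and at 6.31%, 6.88% and 6.18% in cKO. In Krt88 3 cytosines at 4675 to 4694 bp were the most methylated stretch of all, with 36.9%, 96.1% and 98.1% in control and 44.1%, 48.5% and 41.3% in cKO. Only about a kilobase further, at 5774 to 5898 bp, 5 cytosines were at 0.0%, 2.35% and 1.91% in control and 2.49%, 1.88% and 3.53% in cKO. Krt19 had its unmethylated stretch inside the annotated gene, with 26 cytosines at 2933 to 3353 bp, 22 of them in CpG-dense sequence, at 1.07% in control replicates 2 and 3 and 1.44% in cKO. These genes were picked for the plot along the genes after their values were seen.

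**Figure D3:**
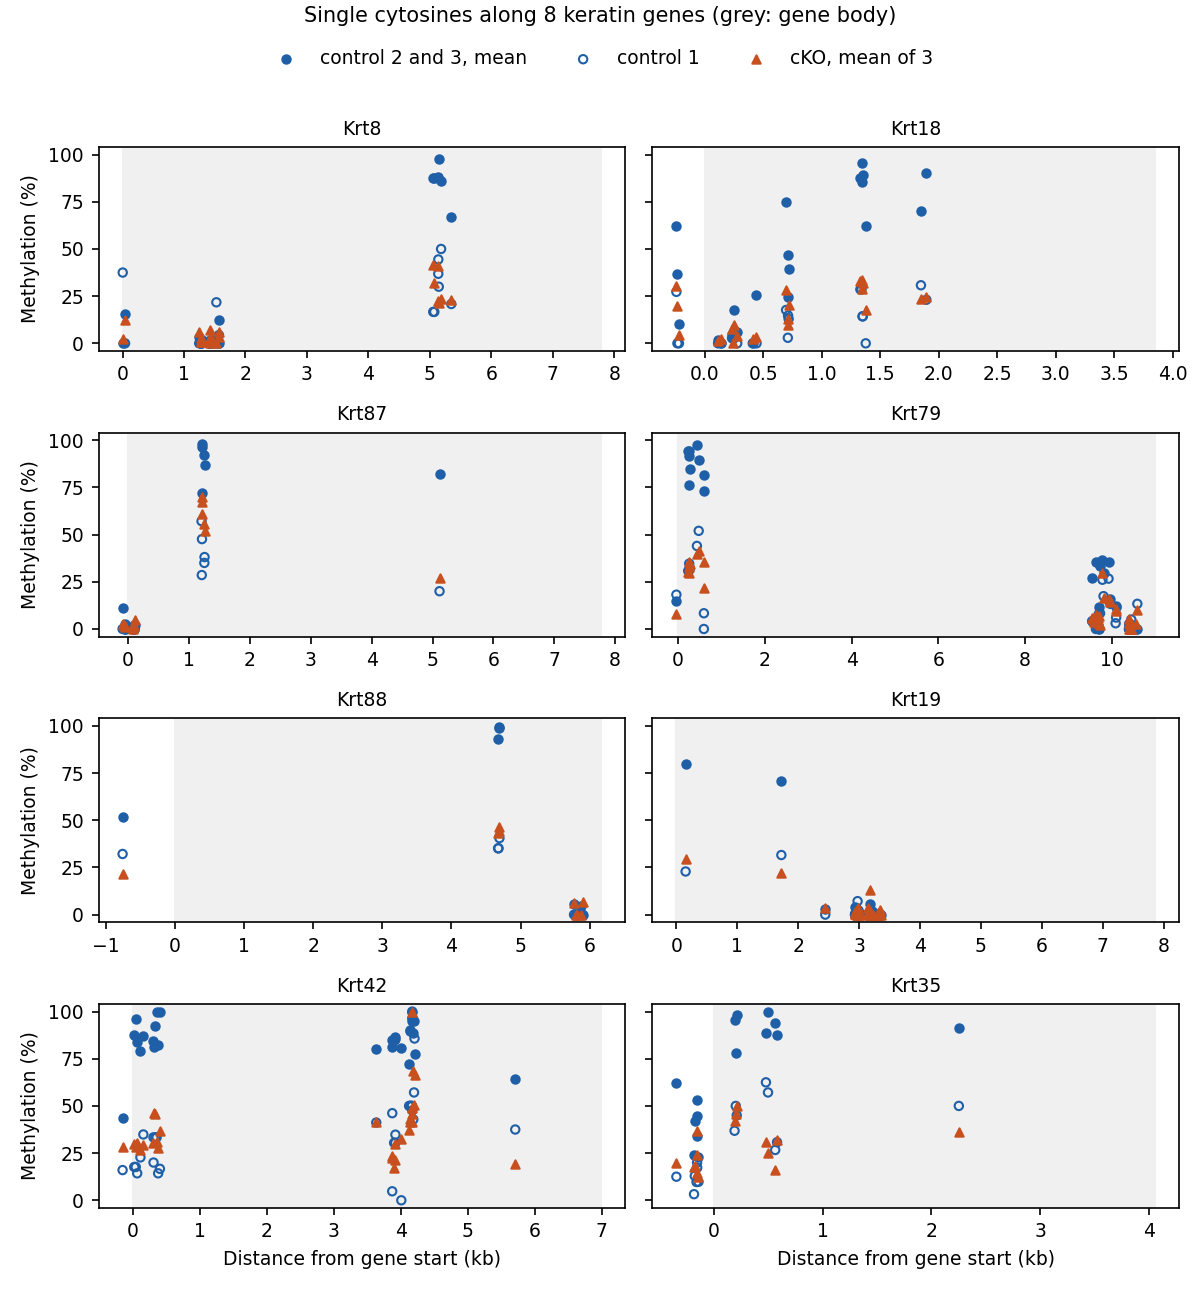
Methylation level of single cytosines in percent (y axis) against distance from the annotated gene start in kilobases (x axis) for Krt8, Krt18, Krt87, Krt79, Krt88, Krt19, Krt42 and Krt35. Filled circles are the mean of control replicates 2 and 3, open circles are control replicate 1 and triangles are the mean of the 3 cKO libraries. Stretches with little methylation lie at the start of Krt87, inside Krt8 and Krt19 and at the end of Krt79 and Krt88, while Krt42 was methylated along its length.

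**Figure D4:**
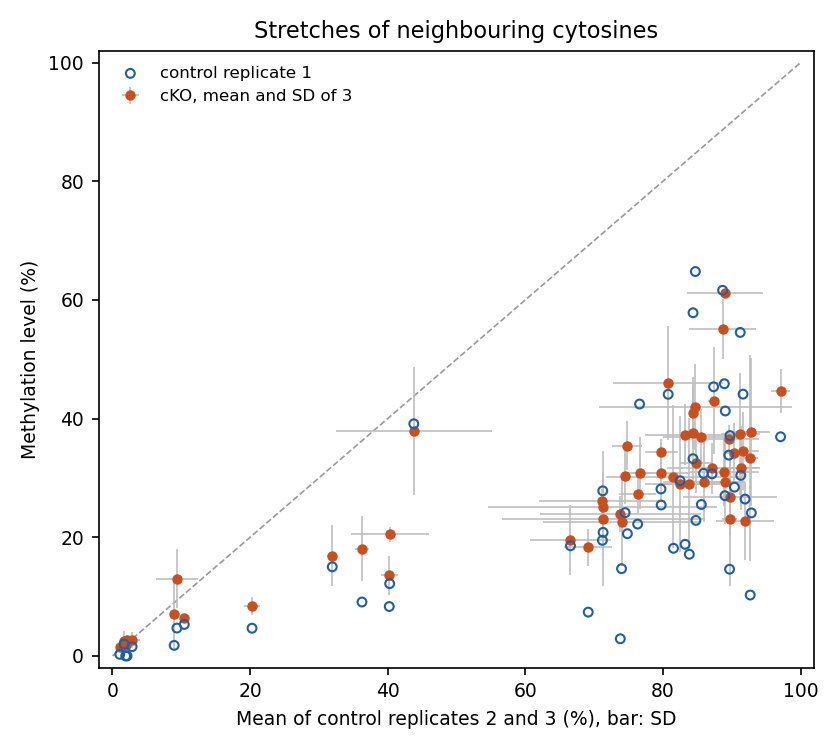
Methylation level of each of the 55 stretches in cKO (filled, mean and SD of 3 libraries) and in control replicate 1 (open) in percent (y axis) against the mean and SD of control replicates 2 and 3 in percent (x axis). The dashed line marks equal levels. Stretches near 0 lie on the line, and those at 50% or more lie below it, with a cKO median of 31.6%.

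CpG-dense sequence was less methylated in both groups. In CpG-dense sequence (500 bp with at least 50% GC and an observed to expected CpG ratio of at least 0.6) 67 cytosines averaged 12.8% in control replicates 2 and 3 and 7.15% in cKO. The 405 other cytosines averaged 63.9% and 26.4%. Upstream of the genes, 34 cytosines went from 44.2% to 21.0%, in exons 324 went from 58.0% to 24.3%, and in introns 114 went from 56.5% to 22.4%.

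Promoters, which here span 1000 bp before and 500 bp after the gene start, set the keratin genes apart in level from most genes. Of 21 tested keratin promoters 17 were at 25% or more in control replicates 2 and 3, against 797 of 11531 promoters of all genes. With all 6 libraries 0 were called, as were 0.0% of all promoters, while 10 keratin promoters and 297 promoters overall had an unadjusted p under 0.05, and limma and the test with the dispersion of each promoter alone called 0. Without control replicate 1, 15 of the 21 were called lower and 0 higher, against a background of 3.63% of all promoters and 52.4% of those at 25% or more. In that fit limma called 5, and the test with the dispersion of each promoter alone called 0. In the called promoters of Krt4, Krt12, Krt28, Krt72, Krt73, Krt75, Krt83 and Krtap29-1, every cytosine read lay after the gene start. Their values describe the first 500 bp of the gene and not the sequence before it. The lowest q was that of Krt83, where 6 of 13 promoter cytosines lie in sequence that is not unique. Its promoter was at 30.4%, 86.0% and 93.8% in control and at 33.6%, 33.2% and 27.0% in cKO (q = 4.13e-05 without control replicate 1). Control replicates 2 and 3 lay above all cKO libraries.

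The promoter and the whole gene were not always both called. The Krt79 promoter was at 35.3%, 82.2% and 85.9% in control and at 36.9%, 35.2% and 26.5% in cKO and was called. The whole Krt79 region went from 34.2% to 16.5% (q = 0.00143 without control replicate 1) and missed the 25 points asked for. Krt18 was called over the whole region but had a promoter at 2.25%, 9.20% and 15.1% in control and at 6.92%, 5.64% and 5.74% in cKO that was not called (q = 0.338). A promoter at this level could not fall by 25 points. The promoters of Krt222, Krt80 and Krt87 were under 10% in control replicates 2 and 3, with 9.45%, 9.64% and 1.58%, and at 5.54%, 13.0% and 1.85% in cKO. None of these passed the test, and from such levels a fall of 25 points was not possible. The Krt80 and Krt87 promoters were slightly higher in cKO.

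At the finest scale, 204 windows of 100 bp lay in the keratin genes. With all 6 libraries 0 of them were called and 0.0% of all windows, with 65 and 42236 at an unadjusted p under 0.05, and limma and the test with the dispersion of each window alone called 0. Without control replicate 1, 128 were called lower and 0 higher, against a background of 44.2% of all 280595 windows. They lie among the 158 keratin windows at 25% or more in control replicates 2 and 3, and 67.8% of such windows at large were called. In that fit limma called 47, and the replicate block and the test with the dispersion of each window alone called 0. Thinly read windows lay at both ends. A Krt36 window (chr11:100104001-100104100, as few as 15 reads) went from 95.04% to 13.6%, and a Krt26 window (chr11:99337501-99337600, as few as 28 reads) was at 80.2% in control replicates 2 and 3 and at 82.04% in cKO. Among the 26 well-read windows the Krt81 window in the first exon fell furthest, from 95.3% and 92.0% in control replicates 2 and 3 to 23.5%, 28.8% and 28.1% in cKO, with control replicate 1 at 41.4% (-66.9 points, q = 3.83e-09 without control replicate 1, q = 0.327 with it).

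The Krt83 window printed above was at 13.7%, 88.4% and 91.5% in control and at 23.5%, 29.9% and 28.2% in cKO (-62.8 points, q = 1.11e-08 without control replicate 1). The Krt42 window was at 28.2%, 83.1% and 86.0% in control and at 12.3%, 35.2% and 20.2% in cKO (-62.0 points, q = 1.08e-07 without control replicate 1). Both sequences are moderate in CpG, with 2 and 4 CpG sites. Among the well-read windows, those with the smallest loss beside Krt87 were in Krt75 and Krt4. The Krt75 window went from 63.5% and 73.6% in control replicates 2 and 3 to 38.6%, 30.7% and 31.7% in cKO, and the Krt4 window went from 84.0% and 90.4% to 51.4%, 53.1% and 39.1%. Even in these windows the cKO libraries stayed below both controls, and both were called without control replicate 1 (q = 0.000553 and 7.26e-06).

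Close copies limit at least a few of these values. They were looked for only in the keratin and keratin-associated clusters, not elsewhere in the genome. Of the 472 cytosines 12, in Krt42, Krt72, Krt81 and Krt83, sit in 41 bases of bisulfite-converted sequence that occur more than once in the keratin and keratin-associated clusters, so that their reads could not be placed with certainty. Krt83 holds 6 of them, all in its promoter and 1 in the printed window. Over its other 9 cytosines Krt83 averaged 33.2%, 78.7% and 91.2% in control and 37.7%, 36.7% and 28.7% in cKO, so that control replicates 2 and 3 were still above all cKO libraries. These averages, added after the data were seen, weight each cytosine equally. A Krt42 cytosine of this kind was at 100% in all 6 libraries with as few as 7 reads.

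Genes that work with keratins were set beside them. Of 47 genes of the cornified envelope, desmosomes and the hair follicle 31 were tested and 14 were called lower without control replicate 1, with a median of 47.9% in control replicates 2 and 3 and 20.1% in cKO. Flg, the filaggrin that bundles keratin filaments, went from 93.5% to 61.6%, and Klk5, a protease of skin shedding, went from 82.0% to 19.6%. Lor and Tchh, structural proteins of the cornified envelope and the inner root sheath, were at 0.892% and 1.08% in control replicates 2 and 3. Of 17 other intermediate filament genes all were tested and 2 were called, with medians of 12.6% and 4.52%. The 14 and 2 genes called stand beside 31.4% of all gene regions without control replicate 1, and 59.2% of those at 25% or more. Nes and Vim, the filaments of neural progenitors, were at 0.840% and 0.846% in control replicates 2 and 3, and Gfap, the astrocyte filament, went from 39.6% to 21.1% without being called. The lists were chosen with earlier results of these data known, and the keratin groups were not tested against them.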

How the data were processed

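The deposited files listed each CpG cytosine with a read count (coverage) and the percent of C and T reads. Per the study's methods, the authors aligned the reads with Genomatix software without mismatches and excluded cytosines covered by 5 or fewer reads. The labels name GRCm38 and methylKit. Here methylated counts were recovered from coverage and percent, and 636736 autosomal cytosines with a coverage of 6 or more in every library were kept. Gene models were from GENCODE M21, and sequences from RefSeq GRCm38.p6.

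Reads were summed per gene region, promoter and 100 bp window. They were compared by a quasi-binomial F test with dispersion moderated as in limma (version 3.58.1; numpy 2.4.6, scipy 1.17.1, pandas 2.3.3), adjusted over all autosomal features, and the method was tested on simulated data. Means were compared by exact permutation tests over libraries. Genes with at least 5 cytosines and 50 reads, up to 30, could be named, together with a fixed set that included Krt5, Krt1, Krt8 and Krt15. Some members outside this rule, among them Krt12, Krt36, Krtap15 and Krtap11-1, were named as well, with their values known. The members, lists and tests were chosen with earlier results of these data known. Control replicate 1 was left out of a second fit because an earlier account reported that it stands apart. Deviations of libraries with the same replicate number correlated at -0.407, 0.232 and -0.469. Against every cKO library, control replicate 1 had a correlation of opposite sign to those of the other controls. Because that library stands apart and shapes the deviations of all controls, these correlations cannot decide whether the replicate numbers pair the samples. No pair of libraries of a group agreed within sampling noise (chi-square per degree of freedom 6.54 or more over gene regions).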

Additional observations from a re-analysis of the deposited data

How the results depend on the processing

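Counts of keratin features called lower depended on the libraries and the test. With all 6 libraries 0 gene regions, 0 promoters and 0 windows were called. With each library left out in turn, the counts ran from 0 to 26 gene regions, 0 to 15 promoters and 0 to 128 windows. The upper end was the fit without control replicate 1. There 31.4% of all gene regions, 3.63% of all promoters and 44.2% of all windows were called. Shares over all features are not given for the other settings below. A plain binomial test, which treats reads as replicates, called 21 gene regions, 15 promoters and 116 windows. The replicate block called 0 of each with all 6 libraries, and 27 gene regions, 16 promoters and 0 windows when control replicate 1 was left out, where the replicate numbers 2 and 3 alone give pairs. Further alternatives for the 26 gene regions, 15 promoters and 128 windows called without control replicate 1 were chosen after seeing the data. With the dispersion of each feature alone, 0 of each were called. With limma 5 promoters and 47 windows were called, and with the replicate block 0 windows. With at least 20 reads per cytosine, 13 gene regions, 7 promoters and 49 windows were called, and fewer features could be tested. The differences in mean level and the ratio to other gene regions kept their direction in every alternative tried, from -33.0 to -14.6 points over all keratin cytosines and from -15.9 to -9.43 for the ratio. The cluster on chromosome 16 gave no value at 20 reads. Depth limits the thinly read members most, such as Krt15 and Krtap11-1. 3 against 3 libraries cannot give a permutation p below 0.1.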
